A study of Mus musculus with 12 samples.

Results

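A set of 10 genes best known from the liver or gut were followed in 2 mouse islet tumour cell lines, aTC1 and bTC3, with and without the small molecule GW8510. They are Serpina1b, Serpina1c, Ttr, Rbp4, Spp2, Apof, Selenop, Selenbp1, Fabp2 and Upb1, 10 of 12255 genes read on the arrays. The 10 genes were chosen by their measured values, because several of them moved strongly and in opposite directions in both lines under GW8510. Their levels and fold changes are therefore given as a description, with no test. They were read by 14 probe sets that carry 1 gene symbol, and 2 further probe sets name several genes of the Serpina1 cluster, out of 22690 probe sets in all. Most of the 10 genes encode plasma proteins or carriers, but Selenbp1, Fabp2 and Upb1 encode intracellular proteins, and Upb1 is an enzyme.

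aTC1 cells (alpha cells) came from a glucagon-producing islet tumour of mice with SV40 T antigen under the glucagon gene promoter, and bTC3 cells (beta cells) came from an insulin-producing islet tumour of mice with the same antigen under the insulin gene promoter. Each line received 3.3 µM GW8510 in 0.1% DMSO, or 0.1% DMSO alone, until day 5. GW8510 is a small molecule described as an inhibitor of cyclin-dependent kinases, and DMSO is its vehicle. There were 4 groups of 3 biological replicates, called alpha DMSO, alpha GW8510, beta DMSO and beta GW8510, with 1 Affymetrix mouse genome array per replicate. A value is an array intensity on a linear scale, and the deposited intensities lie between 20 and 20000, so a value at either bound is only a limit. In bulk RNA of this kind, fewer cells of a type and less RNA per cell cannot be told apart.

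Hepatocytes release a set of carriers and protease inhibitors into the blood. Transthyretin (Ttr) and retinol binding protein (Rbp4) travel together and carry thyroid hormone and retinol, selenoprotein P (Selenop) carries selenium to other tissues, and the Serpina1 genes encode forms of alpha-1-antitrypsin, an inhibitor of neutrophil elastase. Several of these genes, Ttr among them, are also expressed in pancreatic islets, and much of their liver expression depends on factors of the HNF1, HNF4, FOXA and C/EBP families.

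The median intensity of an array lay between 173.7 and 182.0 on 11 of 12 arrays and was 199.9 on the array of beta GW8510 replicate 3, which stands apart. Beta cell values are therefore also given without that array where it matters. The hormone genes Gcg, Ins2 and Iapp followed the labels, but not every cell type marker did. Gcg, the glucagon gene, was at 20000 on all alpha arrays, and Ins2 and Iapp were at 20000 on all beta arrays. Of the alpha cell markers, Ttr was lower in alpha DMSO (8351) than in beta DMSO (20000), and Loxl4 read 59.6 and 69.9. Of the beta cell markers, Slc2a2 was dim in beta DMSO (87.5) and read 3037 in beta GW8510. Beta cells also read Gcg (mean 6420 in DMSO and 12041 with GW8510) and the somatostatin gene Sst (mean 17819 in DMSO and 20000 with GW8510). In alpha cells the beta cell markers Pdx1 (70.8 to 374), Iapp (140 to 382) and Ins2 (96.8 to 153) had higher means with GW8510. Of the other beta cell markers measured, G6pc2 was slightly higher (1629 to 1827), and Nkx6-1 (423 to 375) and Slc2a2 (23.9 to 22.4) were lower. The part of these markers in the results below was not tested. Of a list of 17 hepatocyte markers, 16 were measured, and 13 or 14 of them lay under the array median on all arrays of each group. The summed level of these 16 was 9003 to 9505 in alpha DMSO, 10511 to 11969 in alpha GW8510, 1439 to 1484 in beta DMSO and 1871 to 1930 in beta GW8510. Albumin (Alb) stayed between 26.8 and 37.3 on all 12 arrays, near the lower bound, whereas Cps1 and Tat, of ammonia and tyrosine metabolism, read 6784 and 1310 on average in alpha DMSO and 24 and 57.8 in beta DMSO. The words liver type thus describe where the 10 genes are best known, and the other hepatocyte genes were mostly dim in both lines.

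Promoters of 8 of the 9 genes looked up were found in RefSeq (build GRCm38.p6), as windows of 300 bases from 250 before to 50 after a start site. The promoters of Serpina1b (chr12:103738140-103738439, minus strand) and Serpina1c (chr12:103904901-103905200, minus strand) are shown because these near-identical genes of 1 cluster stood in opposite order between the lines in DMSO. That of Spp2 (chr1:88406760-88407059, plus strand) is shown for its opposite change in the lines. The first window of Selenop (chr15:3270517-3270816, plus strand) is shown for its large ratio between GW8510 and DMSO in alpha cells (21.4-fold). The ratio of Serpina1c in beta cells was close to it (20.8-fold), and Ttr gave no ratio in beta cells. Capitals mark TTGCTTAA, a match to the C/EBP letters TTGCNNAA, in Serpina1b, GTAAATA, the FOXA letters TATTTAC read on the other strand, in Spp2, and AAACATGTTT, a match to the p53 decamer motif, in Selenop.
Serpina1b: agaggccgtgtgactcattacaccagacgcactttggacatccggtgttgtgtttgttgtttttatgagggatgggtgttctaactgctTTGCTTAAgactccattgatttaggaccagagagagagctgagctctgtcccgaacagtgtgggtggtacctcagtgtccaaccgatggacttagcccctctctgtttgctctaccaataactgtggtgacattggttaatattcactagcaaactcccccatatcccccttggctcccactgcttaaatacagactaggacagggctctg
Serpina1c: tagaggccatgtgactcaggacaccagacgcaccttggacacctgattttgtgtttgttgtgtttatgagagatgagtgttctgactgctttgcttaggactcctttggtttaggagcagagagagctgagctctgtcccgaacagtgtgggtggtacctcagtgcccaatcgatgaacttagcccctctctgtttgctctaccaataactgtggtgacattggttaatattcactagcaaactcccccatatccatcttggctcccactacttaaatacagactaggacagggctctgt
Spp2: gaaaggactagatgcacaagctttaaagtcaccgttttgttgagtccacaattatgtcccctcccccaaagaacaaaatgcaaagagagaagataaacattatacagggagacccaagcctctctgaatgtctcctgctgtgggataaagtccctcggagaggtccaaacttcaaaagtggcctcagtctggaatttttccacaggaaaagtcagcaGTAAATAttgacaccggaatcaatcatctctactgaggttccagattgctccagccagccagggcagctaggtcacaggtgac
Selenop: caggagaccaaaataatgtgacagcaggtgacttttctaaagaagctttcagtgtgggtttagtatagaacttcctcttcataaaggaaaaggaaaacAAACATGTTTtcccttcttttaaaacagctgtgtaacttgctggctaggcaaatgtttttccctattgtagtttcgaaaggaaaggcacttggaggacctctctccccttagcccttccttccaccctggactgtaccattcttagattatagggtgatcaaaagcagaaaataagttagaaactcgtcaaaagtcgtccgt

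The windows of Serpina1b and Serpina1c aligned over 298 bases with 22 differences, an identity of 92.6%. Over all pairs of the 5 Serpina1 genes the identity was 91.7% to 98.4%, and the genes lie next to each other on chromosome 12 in the order Serpina1b, Serpina1d, Serpina1a, Serpina1c, Serpina1e. The C/EBP letters stood 161 bases before the start of Serpina1b, and no match was found in the window of Serpina1c. Among the 11 windows of the 8 genes, these letters were present in 4 (Fabp2, Rbp4, Selenbp1 and Serpina1b), against 10.8% of all 32851 windows. The FOXA letters (TGTTTAC or TATTTAC) were present in 4 windows (Fabp2, Rbp4, Selenop and Spp2), against 6.54% of all windows, and in Spp2 they stood 33 bases before the start. The TATA box letters TATAAA were found in 3 windows (Rbp4, Selenbp1 and Selenop), against 13.6%. The p53 decamer motif was found in 2 overlapping windows of Selenop, at the same place, 152 bases before the first start, against 8.36% of all windows. None of the 11 windows held the HNF1 letters TTAATNATT, present in 1.47% of all windows, or the HNF4 letters CAAAGTCCA or CAAAGTTCA, present in 0.861%. All motifs were searched on both strands, no matches in these windows shared bases, and a match describes letters and no binding. Only the exact letters counted, so a window without a match may still hold a site that differs from them.

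In alpha cells, all 10 genes had GW8510 arrays entirely apart from the DMSO arrays, 4 of them higher (Ttr, Selenop, Fabp2 and Upb1) and 6 lower (Serpina1b, Serpina1c, Selenbp1, Spp2, Apof and Rbp4). Of all 12255 genes, 26.0% lay apart on the higher side and 25.5% on the lower side in alpha cells. In beta cells, 8 of the 9 genes with a measurable ratio lay apart on the higher side, Apof overlapped, and none lay apart on the lower side. Of all genes, 28.4% lay apart on the higher side and 17.6% on the lower side in beta cells. Since these contrasts chose the genes, nothing is read from their counts. The probe sets used in the fit place Serpina1b, Serpina1c, Spp2, Selenbp1 and Rbp4 lower in alpha cells and higher in beta cells, Selenop, Upb1 and Fabp2 higher in both, and Apof lower in alpha cells alone.

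**Figure D1:**
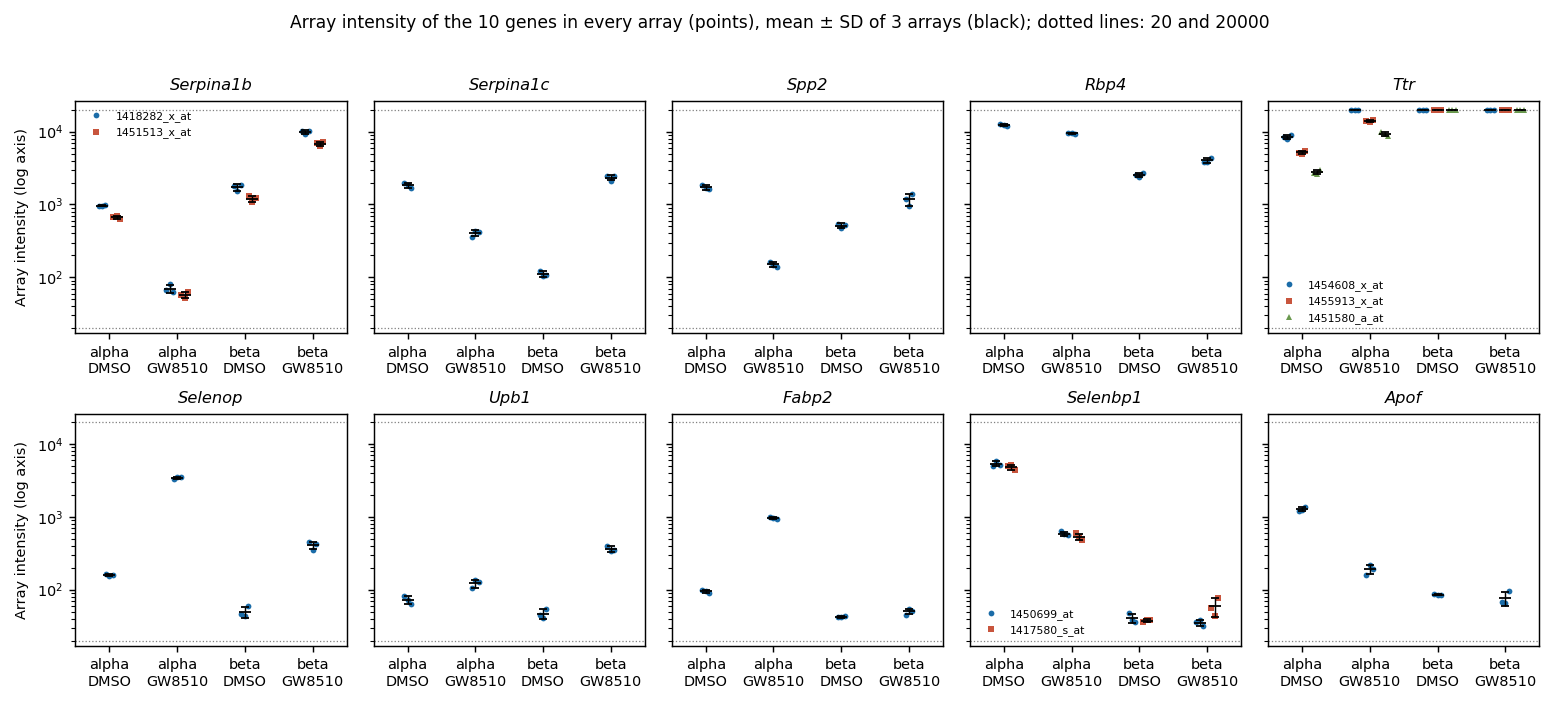
Array intensity (log axis) of the 10 genes in the 4 groups. Each point is 1 array, colours and marker shapes mark the probe sets of a gene, black marks give the mean ± SD of 3 arrays, and dotted lines mark 20 and 20000. All 3 probe sets of Ttr sat at 20000 on every beta array, and Serpina1b, Serpina1c and Spp2 were lower in alpha GW8510 and higher in beta GW8510 than in the DMSO group of their line.

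**Figure D2:**
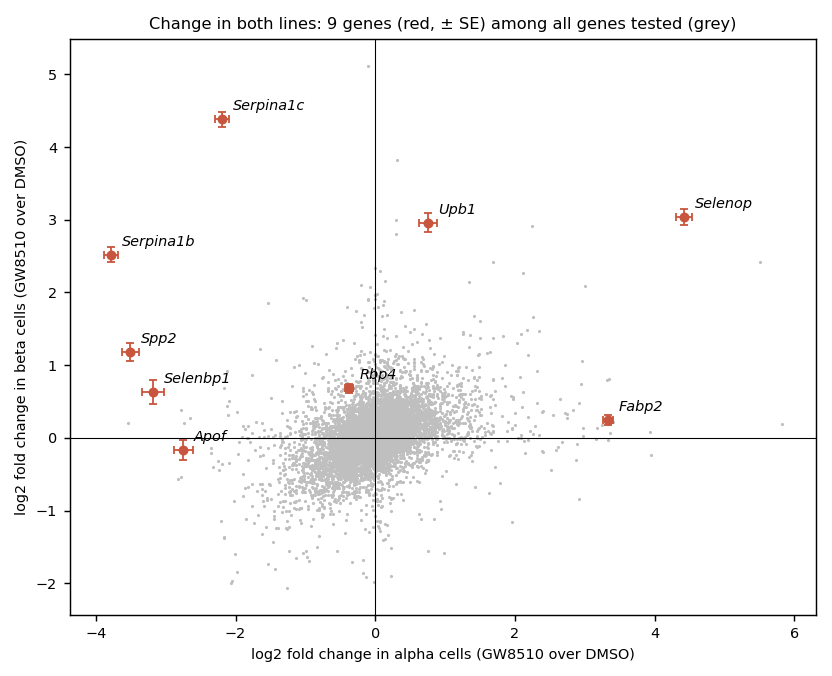
log2 fold change under GW8510 in alpha cells (horizontal) against that in beta cells (vertical). Red points are 9 genes with the standard error of the fit, Ttr being left out because beta cells gave no ratio, and grey points are all genes tested. Serpina1c lies at -2.19 and 4.38, Selenop at 4.42 and 3.04.

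Serpina1b encodes a form of alpha-1-antitrypsin. Its probe set in the fit read 962, 959 and 969 in alpha DMSO and 67.6, 80.5 and 62.5 in alpha GW8510. The beta arrays read 1814, 1520 and 1836 in DMSO and 10180, 9247 and 10168 in GW8510. The level of Serpina1b was thus lowest in alpha GW8510 and highest in beta GW8510, and no neighbouring groups overlapped in the order of the 4 groups. The log2 fold change was -3.79 ± 0.10 (standard error of the fit, n = 3 against 3) in alpha cells, a level 13.8-fold lower, and 2.52 ± 0.10 in beta cells, a level 5.74-fold higher. Without beta GW8510 replicate 3 the beta value of Serpina1b was 2.50. Beta DMSO stood 1.78-fold above alpha DMSO, whereas beta GW8510 stood 141-fold above alpha GW8510. A second probe set gave -3.54 ± 0.09 in alpha cells and 2.52 ± 0.10 in beta cells (standard error of the group means). Probes in both Serpina1b probe sets may also match transcripts of the paralogs.

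Serpina1c encodes another form of the same inhibitor, and its probe set is designed for 1 gene. Alpha cells read 1971, 1866 and 1670 in DMSO and 361, 427 and 422 in GW8510. The beta DMSO arrays read 123, 105 and 107, and the beta GW8510 arrays 2431, 2115 and 2437. Alpha GW8510 was 4.55-fold lower than alpha DMSO (log2 -2.19 ± 0.10), and beta GW8510 was 20.8-fold higher than beta DMSO (log2 4.38 ± 0.10, and 4.35 without beta GW8510 replicate 3). In DMSO the order of the lines was opposite to that of Serpina1b, with Serpina1c 16.4-fold lower in beta than in alpha cells (log2 -4.04 ± 0.10). With GW8510 the beta level of Serpina1c stood 5.77-fold above the alpha level, so the order of the lines turned.

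The 2 probe sets that name several Serpina1 genes had the same direction as these in each line. The probe set that carries the symbols Serpina1d and Serpina1a read 1451, 1415 and 1325 in alpha DMSO and 41.3, 37.2 and 46.4 in alpha GW8510, a level 33.7-fold lower. The same probe set in beta cells read 2652, 2565 and 2463 in DMSO and 5839, 5295 and 6002 in GW8510, a level 2.23-fold higher. The probe set that carries Serpina1e, Serpina1c and Serpina1b was dim, and it was designed on a transcript which RefSeq assigns to Serpina1d. Its alpha arrays read 77.6, 70.6 and 55.1 in DMSO and 25.8, 31.5 and 24.9 in GW8510. Its beta arrays read 90.9, 92.7 and 84.4 in DMSO and 386, 259 and 274 in GW8510. The direction was thus shared by all 5 probe sets of the cluster, while the size differed, from a log2 of -5.07 to -1.30 in alpha cells and from 1.16 to 4.38 in beta cells. How much of each reading comes from cross-hybridization between the paralogs was not tested.

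**Figure D3:**
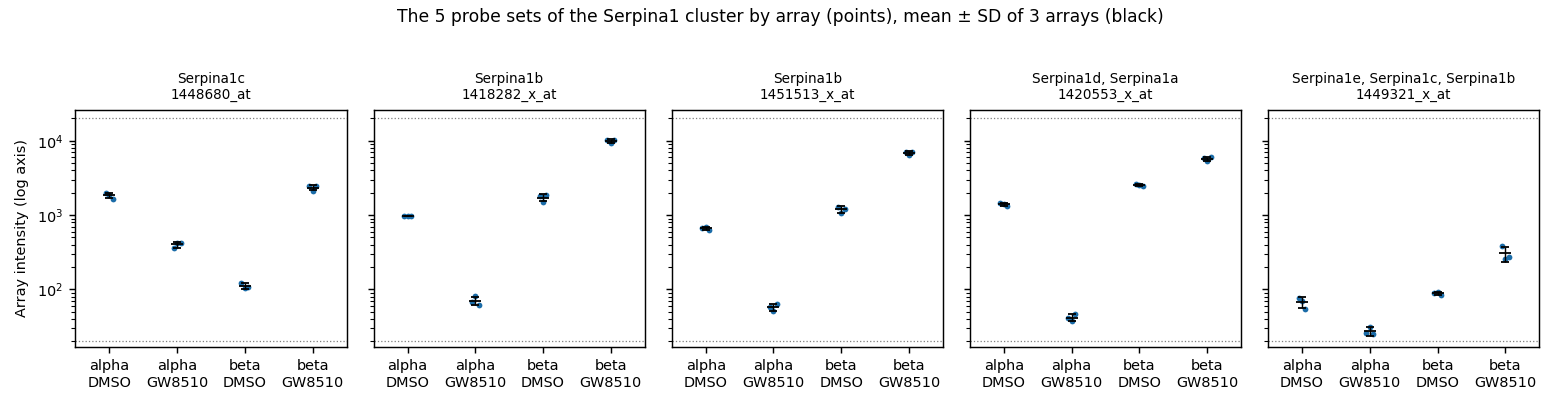
Array intensity (log axis) of the 5 probe sets of the Serpina1 cluster in the 4 groups, with the gene symbols each carries. Points are arrays and black marks the mean ± SD of 3 arrays. In beta DMSO the Serpina1c probe set (mean 112) was below its alpha DMSO level (mean 1836), whereas both Serpina1b probe sets were above theirs.

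Spp2 encodes secreted phosphoprotein 24, a plasma and bone matrix protein related to cystatins. The alpha DMSO arrays read 1859, 1679 and 1625 and the alpha GW8510 arrays 164, 149 and 140, a level 11.4-fold lower (log2 -3.51 ± 0.12). Beta cells read 547, 474 and 516 in DMSO and 1181, 951 and 1382 in GW8510, a level 2.26-fold higher (log2 1.18 ± 0.12). The groups of each line did not overlap, and alpha DMSO was the highest of the 4 groups. Without beta GW8510 replicate 3, the highest of its group, the beta value of Spp2 was 1.05.

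Apof encodes apolipoprotein F, a lipoprotein component that inhibits lipid transfer. Its alpha arrays read 1193, 1248 and 1350 in DMSO and 161, 216 and 189 in GW8510, a level 6.74-fold lower (log2 -2.75 ± 0.14). In beta cells it was dim, with 87.2, 83.5 and 84.4 in DMSO and 68.1, 65.2 and 96.4 in GW8510, and the groups overlapped (log2 -0.17 ± 0.14). The array that overlapped was beta GW8510 replicate 3, without which the beta value of Apof was -0.35. The other beta GW8510 arrays lay below all beta DMSO arrays.

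Rbp4, the plasma carrier of retinol, was bright in both lines and had the smallest alpha cell ratio of the 10 genes. Alpha DMSO read 12525, 12359 and 11856 and alpha GW8510 read 9575, 9446 and 9267, a level 1.3-fold lower (log2 -0.38 ± 0.06). Beta DMSO read 2505, 2391 and 2671 and beta GW8510 read 3869, 3877 and 4368, a level 1.6-fold higher (log2 0.68 ± 0.06). Without beta GW8510 replicate 3 the latter was 0.62. The groups of Rbp4 lay apart in both lines, with all alpha arrays above all beta arrays.

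Ttr encodes transthyretin, which binds Rbp4 in plasma. Its 3 probe sets were at 20000 on all 6 beta arrays, so beta cells gave no ratio between GW8510 and DMSO. The dimmest probe set of Ttr read 2731, 2606 and 2988 in alpha DMSO and 9880, 9354 and 8745 in alpha GW8510, a level 3.36-fold higher (log2 1.75 ± 0.08, standard error of the group means). Another read 5155, 4949 and 5490 in alpha DMSO and 13770, 13630 and 14401 in alpha GW8510, with a log2 of 1.42 ± 0.05. The third, used in the fit, gave 1.25 ± 0.05, and 1 of its alpha GW8510 arrays was at the upper bound. All 3 probe sets of Ttr had alpha GW8510 above alpha DMSO with no overlap, and the value of the third is a lower bound, since its alpha GW8510 arrays lay at or just below 20000. Beta DMSO was at least 7.22-fold above alpha DMSO by the dimmest probe set, at least 3.85-fold by the second and at least 2.4-fold by the third, the bounds following from the upper limit of 20000. Ttr and Rbp4 thus stood in opposite order between the lines in DMSO, with Rbp4 4.86-fold lower in beta than in alpha cells.

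Selenop encodes selenoprotein P, the plasma carrier of selenium. In alpha cells it read 162, 156 and 161 in DMSO and 3295, 3468 and 3472 in GW8510. The beta arrays of Selenop read 45.6, 43.6 and 59.3 in DMSO and 444, 348 and 426 in GW8510. Alpha GW8510 was the highest group and beta DMSO the lowest, and no neighbouring groups overlapped. The level with GW8510 was 21.4-fold higher in alpha cells (log2 4.42 ± 0.11) and 8.24-fold higher in beta cells (log2 3.04 ± 0.11, and 3.00 without beta GW8510 replicate 3). In DMSO, Selenop was 3.25-fold lower in beta than in alpha cells.

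Selenbp1 encodes selenium binding protein 1, an intracellular enzyme that oxidizes methanethiol. Its probe set in the fit read 4920, 5085 and 4396 in alpha DMSO and 591, 520 and 485 in alpha GW8510, a level 9.03-fold lower (log2 -3.18 ± 0.16). In beta cells it read 35.6, 38.1 and 38.5 in DMSO and 56.6, 43.8 and 77.5 in GW8510, with a log2 of 0.63 ± 0.16, and 0.41 without replicate 3 of beta GW8510. That probe set was designed on a transcript which RefSeq assigns to the close relative Selenbp2. The other probe set, designed on Selenbp1 itself, read 5022, 5793 and 5168 in alpha DMSO and 630, 570 and 565 in alpha GW8510, again with a log2 of -3.18. Its beta arrays read 47.6, 37.9 and 36 in DMSO and 35.7, 38.3 and 31.3 in GW8510, and overlapped (log2 -0.20 ± 0.15). The lower alpha level of Selenbp1 was thus shared by both probe sets and the higher beta level was not. In DMSO, beta cells were 128-fold below alpha cells by the first probe set and 132-fold by the second. This was the widest gap between the lines among the genes with a measured ratio, which leaves out Ttr. The promoter windows of Selenbp1 and Selenbp2 were 94.4% identical.

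Fabp2 encodes the intestinal fatty acid binding protein, a carrier of fatty acids inside enterocytes. Its alpha arrays read 99.4, 96 and 90.5 in DMSO and 989, 960 and 930 in GW8510, a level 10.1-fold higher (log2 3.33 ± 0.07). In beta cells it stayed dim, at 41.7, 41.8 and 43.2 in DMSO and 45.5, 54.8 and 50.6 in GW8510, with a log2 of 0.25 ± 0.07, and 0.24 without beta GW8510 replicate 3. Both lines thus had Fabp2 higher with GW8510 without overlap, but all beta arrays lay below all alpha arrays. Of 10 enterocyte markers, 7 were measured, and their summed level was 342 to 399 in alpha DMSO and 418 to 450 in alpha GW8510, with all 7 under the array median. Among them Lct, the lactase gene, rose from 72.3 to 131 in alpha cells (log2 0.86, adjusted p = 0.000379, limma). Fabp1, the liver form, read 47.7 ± 4.05 in alpha DMSO and 49.7 ± 9.4 in alpha GW8510 (SD, n = 3).

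Upb1 encodes beta-ureidopropionase, which releases beta-alanine in the last step of pyrimidine breakdown. In alpha cells it read 81.7, 72.6 and 63.3 in DMSO and 105, 134 and 126 in GW8510, a level 1.68-fold higher (log2 0.75 ± 0.13). The beta arrays of Upb1 read 45.5, 40.4 and 54.1 in DMSO and 395, 340 and 349 in GW8510, a level 7.79-fold higher (log2 2.96 ± 0.13, and 2.98 without beta GW8510 replicate 3). No groups of Upb1 overlapped, and beta cells went from the lowest to the highest of the 4 groups.

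In DMSO, 8 of the 9 genes with a measured ratio between the lines were lower in beta than in alpha cells. They were Selenbp1 (log2 -7.00), Serpina1c (-4.04), Apof (-3.89), Rbp4 (-2.28), Spp2 (-1.75), Selenop (-1.70), Fabp2 (-1.17) and Upb1 (-0.64), while Serpina1b was higher (0.83). Ttr was higher as well, by the bounds above. Of all 12255 genes, 42.6% were above 0 and 57.4% below in this contrast, and 26.8% were higher and 28.9% lower at an adjusted p under 0.05 (limma). The effect in beta cells minus the effect in alpha cells was above 0 for 7 of 9 genes, from 1.05 ± 0.09 in Rbp4 to 6.57 ± 0.13 in Serpina1c, and below 0 for Selenop (-1.38 ± 0.16) and Fabp2 (-3.08 ± 0.10). Over all genes, 57.2% lay above 0 and 42.8% below, and the difference passed an adjusted p of 0.05 (limma) in 16.4% above and in 12.0% below 0. Nothing is read from the count, since these differences chose the genes.

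**Figure D4:**
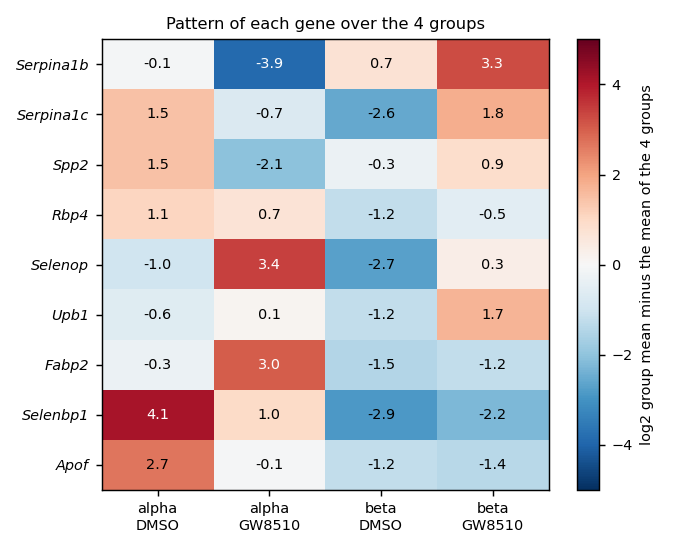
Pattern of 9 genes over the 4 groups. Each cell is the group mean of log2 intensity minus the mean of the 4 groups for that gene (red higher, blue lower), and Ttr is left out because its beta values are limits. Serpina1b, Serpina1c and Upb1 are highest in beta GW8510, Selenop and Fabp2 in alpha GW8510, and Spp2, Rbp4, Selenbp1 and Apof in alpha DMSO.

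Likeness between genes was measured as the root mean square difference between their 4 group means of log2 intensity, each gene centred on its own mean, so that 0 is the same pattern. Among the 9 genes the nearest pair was Apof and Rbp4 (0.99), followed by Selenop and Fabp2 (1.07), and the farthest was Serpina1b and Selenbp1 (4.60). Serpina1b and Serpina1c, of 1 cluster, were 2.52 apart. Of 3274 genes whose group means span at least 1 on the log2 scale, the nearest to Spp2 were Ndrg1 (0.41) and Atf3 (0.57), and the nearest to Apof were Cacng5 (0.17) and Ptprk (0.20). Fabp2 was nearest to Itgb2 (0.16) and Cd68 (0.22), Rbp4 to Chac2 (0.05) and Pttg1 (0.10), Upb1 to Neu1 (0.44) and Serpinb6a (0.47), and Selenbp1 to Stbd1 (0.60) and Slc2a3 (0.61). Selenop had Fbp1 (0.90) and Smpdl3b (0.97) as its nearest, Serpina1c had Anxa2 (1.07) and Bnip3 (1.14), and Serpina1b had Aldoc (1.29) and Ero1a (1.32). Close neighbours thus existed for Rbp4, Fabp2 and Apof, whereas Serpina1b, Serpina1c and Selenop had none under 0.90. The measure is not scaled by the span of a gene over the groups, so genes of wide span tend to lie farther from others. Itgb2 and Cd68 are best known from leukocytes. The leukocyte list had 5 of 6 markers measured, all under the array median in every group, with a summed level of 297 to 330 in alpha DMSO and 343 to 392 in alpha GW8510, and Ptprc, its defining marker, read 20 on all alpha DMSO arrays and at most 23.7 in alpha GW8510. The part of other cell types in the Fabp2 pattern was not tested.

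Around the 10 genes, 7 lists of related genes were tested, in which the 10 genes themselves were left out. Of 303 genes written, 252 were measured. In alpha cells 54 rose and 40 fell at an adjusted p under 0.05 (limma, Benjamini-Hochberg over all genes), 21.4% and 15.9% of the lists against 20.2% and 21.2% of all genes. In beta cells 61 rose and 22 fell, 24.2% and 8.73% against 19.7% and 14.3% of all genes, and 52 rose and 23 fell without beta GW8510 replicate 3. The median log2 fold change was 0.06 in alpha and 0.14 in beta cells, against 0.03 and 0.07 over all genes. In alpha cells the share that rose was thus near that of all genes. The count ranged from 47 to 61 with 1 array left out. Every gene said below to have risen or fallen had an adjusted p under 0.05.

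Of 79 measured plasma proteins of liver type, 10 rose and 3 fell in alpha cells (12.7% and 3.80%, against 20.2% and 21.2% of all genes), and 18 and 7 when noisier arrays were given less weight. In beta cells 12 rose and none fell (15.2% and 0%, against 19.7% and 14.3%). With all arrays weighted equally, both shares of this list were thus below those of all genes in both lines. The shares of all genes with unequal weights were not set beside the list. Many genes of the list were dim, and the part of low levels in these shares was not tested. By the probe sets in the fit, the largest changes were in Pros1, the gene of protein S, in alpha cells (log2 1.17 ± 0.07, adjusted p = 4.55e-08, limma), and in C4bp, a complement inhibitor, in beta cells (2.30 ± 0.12, adjusted p = 1.22e-07, limma). Igf1 fell in alpha cells (-1.04 ± 0.10), and its other probe sets read -1.46 and -2.61, larger in size than the change of Pros1. Apob, Apoe and Apoh were dim, with no group mean above 55.7, and none of them passed the test in either line, though Apob in beta cells (0.44, adjusted p = 0.0568, limma) passed in 7 of 21 alternatives. Apoa1 was dim as well, with a log2 of 0.33 in alpha cells (adjusted p = 0.00336, limma) that its other probe sets did not share in full, at 0.18, -0.00 and 0.07. Among 21 other serpins, 3 rose and 3 fell in alpha cells (14.3% each), and 6 rose and none fell in beta cells (28.6% and 0%). The 3 that rose in alpha cells were 5 without beta GW8510 replicate 3. Serping1, the C1 inhibitor, fell in alpha cells (-1.83 ± 0.13), and Serpinb6a, an intracellular serpin, rose in alpha (1.34 ± 0.06) and beta cells (2.15 ± 0.06). Serpina10 and Serpina3n belong to the same serpin clade as the Serpina1 genes. Serpina10 rose by 1.78 ± 0.10 in beta cells (adjusted p = 1.66e-07, limma) and stood at -0.02 in alpha cells, whereas Serpina3n rose by 0.26 in alpha cells (adjusted p = 0.0164, limma), with overlapping arrays and a call lost on leaving out alpha DMSO replicate 2 or 3 or alpha GW8510 replicate 1 or 2, and stood at -0.08 in beta cells.

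Of 39 genes of lipid binding and lipoprotein handling, 13 rose and 7 fell in alpha cells (33.3% and 17.9%). In beta cells 11 rose and 1 fell (28.2% and 2.56%). Without alpha DMSO replicate 1 or 2 or beta GW8510 replicate 3, 2 fell in beta cells. The shares of all genes were 20.2% and 21.2% in alpha cells and 19.7% and 14.3% in beta cells. Stard10, a phospholipid carrier, rose in alpha (2.32 ± 0.06) and beta cells (0.92 ± 0.06), and the sterol carrier Scp2 rose by 1.08 ± 0.05 in beta cells, its other probe sets reading 0.35, 0.43 and 0.63. Mttp, which loads lipid onto apolipoprotein B, fell in alpha cells (-1.16 ± 0.13) and rose in beta cells (0.36 ± 0.13, adjusted p = 0.0457, limma), a rise that its other probe set (0.03) did not share. This beta call of Mttp was also lost in 9 of the 12 fits with 1 array left out, and without beta GW8510 replicate 3 among them. Of 35 genes that handle retinoids and thyroid hormone, 7 rose and 5 fell in alpha cells and 13 rose and 2 fell in beta cells. Aldh1a1, which makes retinoic acid, rose in alpha cells (2.97 ± 0.11), and the thyroxine deiodinase Dio1 rose in beta cells (0.84 ± 0.18). Stra6, the receptor of Rbp4, was dim, with a highest group mean of 71.

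Of 29 genes of selenoproteins and selenium handling, 10 rose and 7 fell in alpha cells (34.5% and 24.1%). In beta cells 9 of them rose and 6 fell (31.0% and 20.7%). The shares of all genes were 20.2% and 21.2% in alpha cells and 19.7% and 14.3% in beta cells. Lrp8, a receptor of selenoprotein P, stood at 0.21 in alpha cells (adjusted p = 0.177, limma) and rose by 0.40 ± 0.11 in beta cells (adjusted p = 0.0171, limma), a call that was lost without beta GW8510 replicate 3 (0.29), while Lrp2, another receptor, was dim and passed in neither line. Sephs2, which makes the selenium donor for selenoproteins, rose by 0.16 ± 0.05 in alpha and 0.54 ± 0.05 in beta cells, the alpha call being lost on leaving out any alpha DMSO array or alpha GW8510 replicate 2. The largest change in the list was that of Mgst1 (2.34 in alpha and 1.47 in beta cells), a glutathione transferase that is no selenoprotein, and its other probe set read 0.11 and 0.06. Of 17 genes of pyrimidine and beta-alanine breakdown, 5 rose and 6 fell in alpha cells (29.4% and 35.3%). In beta cells 4 of them rose and 6 fell (23.5% and 35.3%), the 6 becoming 3 without beta DMSO replicate 1 or beta GW8510 replicate 2. Dpyd and Dpys, which act in the steps before Upb1, were dim, with no group mean above 53, and passed in neither line, although a second probe set of Dpyd read -0.68 in beta cells and passed there when used. Upp1, a uridine phosphorylase, fell in alpha cells (-0.90 ± 0.05) and rose in beta cells (1.27 ± 0.05), and Upp2, with 2 of 3 alpha DMSO arrays at the lower bound of 20, read 61.2 ± 8.09 in alpha GW8510 (SD, n = 3), at least 3.02-fold higher, with 0.50 on the log2 scale by its other probe set.

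Of 36 transcription factors of hepatocytes, 7 rose and 9 fell in alpha cells, and 7 rose and 7 fell in beta cells. The 7 that rose in alpha cells were 4 without alpha DMSO replicate 1 or 3 or alpha GW8510 replicate 1. Hnf4a, a nuclear receptor that acts on many liver genes, read 89.6 ± 4.17 in alpha DMSO, 91.2 ± 7.27 in alpha GW8510, 369 ± 8.52 in beta DMSO and 526 ± 42.1 in beta GW8510 (SD, n = 3), a rise in beta cells of 0.51 ± 0.07 on the log2 scale. Foxa2 fell in alpha cells (-0.60 ± 0.07), Foxa1 rose in beta cells (0.51 ± 0.09), and the bile acid receptor Nr1h4 rose in beta cells (0.93 ± 0.09). Cebpb rose in alpha cells (0.25 ± 0.07, and 0.18 with no call without alpha DMSO replicate 3) and fell in beta cells (-0.66 ± 0.07). Nr2f1 rose in both lines (0.91 and 1.02), while Cebpg fell in both (-1.20 and -0.58), its beta fall not being shared by another probe set (0.20). Foxa3, Cebpa, Onecut1 and Nr5a2 passed in neither line. Hnf4g was dim and rose by 0.22 in alpha cells, which its other probe set did not share (-0.01) and which was lost on leaving out any alpha DMSO array or alpha GW8510 replicate 1.

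**Figure D5:**
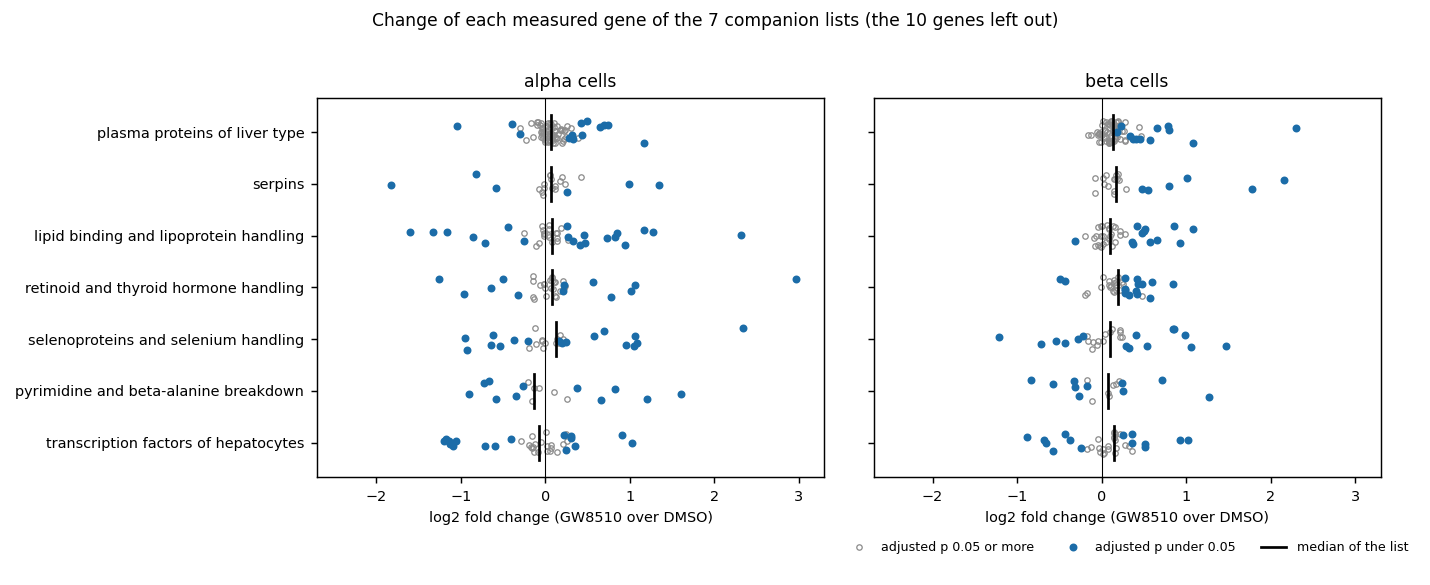
log2 fold change under GW8510 of each measured gene of the 7 lists in alpha cells (left) and beta cells (right). Filled points have an adjusted p under 0.05 in limma, open points do not, and black bars are list medians. In alpha cells the medians lie between -0.13 and 0.13, and in beta cells between 0.07 and 0.19.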

How the data were processed

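The authors deposited linear array intensities for 12 Affymetrix arrays. All of them lie from 20 to 20000, limits taken to be the submitters' own. Their processing notes name RMA, whose version is not given in the sources used here. Values were converted to log2 without a pseudocount. Gene symbols came from the platform annotation: of 22690 probe sets, 64 are controls, 20380 have 1 symbol, 691 have several and 1555 have none. A further 330 with 1 symbol sat at a limit on every array and were dropped. Each of 12255 genes was represented by the probe set of highest mean, and the 10 genes described were also read from all their other probe sets. Ratios are those of geometric means.

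The fit used limma 3.58.1 (R 4.3.3) on the 4 groups together, with moderated variances, and p-values were adjusted by Benjamini-Hochberg over all genes. The paper names no per-gene test for the arrays. The procedure was first tested on simulated data. Precision is limited by 3 arrays per group. The 10 genes, the 7 lists and the motifs were chosen with earlier results of these data known. From each list, the gene of largest absolute change in each line is named, among genes at an adjusted p under 0.05 with arrays apart between the groups, beside a fixed set of partners and transcription factors and Serpina10, which was added after its values were seen. The written rule also admitted further genes (up to 3 per list and comparison), which are left out for length, and the cell type and pattern paragraphs name markers and nearest genes. Alternatives covered normalization, the choice of probe set, a pseudocount of 16, omission of the dimmest 25% of genes, fitting fewer arrays, trended robust variances, weighted arrays, a block for replicate number, and omission of single arrays. The labels do not say whether replicate numbers mark pairs, and the paper calls its vehicle controls matched. Same-numbered arrays showed no shared deviation, so no block was used in the fit. Promoter windows came from RefSeq (GRCm38.p6) and were aligned with Biopython 1.88. Protein sequences were not used here, and some genes are not reported here.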

Additional observations from a re-analysis of the deposited data

Results flagged for a closer look

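In 5 of the 10 genes every GW8510 array lay on one side of the DMSO arrays in alpha cells and on the opposite side in beta cells. The effect in beta cells minus that in alpha cells, on the log2 scale, was 6.31 for Serpina1b, 6.57 for Serpina1c, 4.69 for Spp2, 3.80 for Selenbp1 and 1.05 for Rbp4. These differences were not tested, since they chose the genes. Of all genes, 25.5% lay apart on the lower side in alpha cells and 28.4% on the higher side in beta cells. The share of all genes with both was not counted, so nothing is read from the 5. The second probe set of Selenbp1 did not share the higher beta level.

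In the lists around them, the difference between the lines itself passed an adjusted p of 0.05 (limma) for 21 named genes. Over all genes it passed in 16.4% above 0 and 12.0% below. Some of the 21 were named for the largest change of their list in 1 line, and Serpina10 after its values were seen. Nothing is therefore read from this count. Above 0 were C4bp at 2.24, Upp1 at 2.17, Serping1 at 2.00, Serpina10 at 1.80, Mttp at 1.52, Nr1h4 at 0.88, Serpinb6a at 0.82, Foxa2 at 0.76, Scp2 at 0.67, Cebpg at 0.62, Foxa1 at 0.56, Hnf4a at 0.49 and Sephs2 at 0.37. Below 0 were Aldh1a1 at -2.83, Stard10 at -1.39, Upp2 at -1.39, Pros1 at -1.17, Cebpb at -0.91, Mgst1 at -0.87, Serpina3n at -0.34 and Apoa1 at -0.32. Of these, the call was lost in 12 of 21 alternatives for Apoa1, whose sign turned in 1 more, and in 10 of 21 for Serpina3n, and Mgst1 read -0.06 by its other probe set. Scp2 read 0.23 by its probe set with the lowest mean, and its call was lost there. The value of Upp2 rests on readings at the lower bound. In 10 of the 252 genes both lines passed in opposite directions, 6 of them lower in alpha and higher in beta cells, and 4 the reverse, with Upp1 at the largest difference. The share of all genes with such opposite calls was not counted, so nothing is read from these numbers. Mttp is among the 6, but its beta call was lost in most fits with 1 array left out, and Cebpb is among the 4, but its alpha call was lost without alpha DMSO replicate 3.

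Of 57 cell type markers measured, the difference passed for 19. Over all genes it passed in 16.4% above 0 and 12.0% below. Ttr, 1 of the 10 chosen genes, is among the 19, but its beta values are limits and it counts as no test. Others of the 19 also sit at the upper bound in 1 line, and nothing is read from the count. Among the 19, the difference was 2.02 for Vil1, 0.55 for Cps1 and -2.60 for Pdx1.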

How the results depend on the processing

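Every count of risen and fallen genes over the 7 lists together stayed within 1.5 times its value in all alternatives, while counts of single lists, which are smaller, moved by more in 49 cases out of the 1392 list counts computed, the pooled ones included. In alpha cells the risen genes numbered 41 to 74 and the fallen 36 to 52, and in beta cells 50 to 68 and 18 to 26. With each array left out in turn, the counts were 47 to 61 and 38 to 43 in alpha cells, 52 to 68 and 18 to 23 in beta cells, 42 to 53 and 28 to 34 for the difference between the lines, and 43 to 49 and 61 to 75 for beta DMSO against alpha DMSO. Of 827 values of the 10 genes under the alternatives, 793 moved by less than the spread between replicates, 33 moved by more and 1 turned its sign. When the probe set with the lowest mean was used, the signs of Selenbp1 in beta cells (-0.20), of Apoa1 in alpha cells (-0.00) and in the difference (0.07), of Hnf4g in alpha cells (-0.01) and of Cebpg in beta cells (0.20) turned, because another probe set was read. Same-numbered arrays of different groups correlated between -0.127 and 0.0761 in their deviations. These values show no shared deviation but cannot tell whether the numbers mark pairs. With the replicate number as a block, 51 genes of the lists rose and 39 fell in alpha cells. The upper bound of 20000 limits what Ttr can show in beta cells, and levels near the lower bound of 20 limit the ratios of dim genes such as Fabp2 in beta cells.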

Other observations

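Of the enterocyte markers, Vil1, the gene of the brush border protein villin, rose with GW8510 in beta cells from a mean of 61.9 to 235 (log2 1.91, adjusted p = 1.71e-06, limma) and stood at -0.11 in alpha cells (adjusted p = 0.586, limma). The difference between the lines was 2.02 (adjusted p = 1.58e-05, limma). Lct rose in alpha cells, as given above. Cdx2, an intestinal transcription factor, was higher in beta DMSO than in alpha DMSO (log2 1.85, adjusted p = 1.07e-05, limma).

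Of the hepatocyte markers, Cps1, the first enzyme of the urea cycle, rose in both lines, by 0.36 in alpha cells (adjusted p = 0.00757, limma) and by 0.92 in beta cells (adjusted p = 1.60e-05, limma), where its mean with GW8510 was 45.5.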
